A study of Mus musculus with 8 samples.

Results

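Microtubule genes of the mouse mPFC were followed in RNA that travelled with tagged ribosomes and in the unpurified RNA of the same region. The set held every gene whose symbol names an alpha, beta or gamma tubulin, a tubulin folding cofactor, a kinesin heavy or light chain, a dynein chain or a dynactin subunit. Of 78 such symbols with a probe set of their own, 56 were bright enough to be tested, among 11712 tested genes in all. A gene was kept where its brightest probe set exceeded the array's median over named genes on at least 2 of the 8 arrays. Those medians lay between 5.86 and 5.98 on the log2 scale. Of the 56 genes, 50 passed on all 8 arrays. The other 6 were Dynlrb2, Kif9, Tubb6, Kif19a, Kif6 and Kif7, and 2 of them, Dynlrb2 in NAC pull-downs and Kif9 in VTA inputs, passed in a single group. Among the 22 genes left out, 21 exceeded the median on no array and Klc3 exceeded it on 1, at 5.97 in the first VTA pull-down. Just inside the rule, Kif9 measured 6.05 and 5.98 in the VTA inputs.

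Groups numbered 4, with 2 arrays each. VTA pull-downs came from mice given CAV2-Cre, a canine adenovirus carrying Cre recombinase, in VTA, and their ribosomes were captured from mPFC with GFP-trap. NAC pull-downs were made in the same way after injection in NAC. VTA inputs and NAC inputs are the RNA of the injected mice's mPFC without the pull-down. All groups therefore carried the Cre-dependent ribosomal tag and the virus, and inputs hold RNA of tagged and untagged cells together. Mouse strain, age and the number of animals per array are not given in the labels, and nothing there says that the arrays of a group come from separate animals. P-values hence measure only the spread between these arrays, which may be technical.

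Microtubules are hollow polymers of alpha and beta tubulin dimers that grow from gamma tubulin nucleation sites, and folding cofactors assemble the dimers. Axons depend on them as tracks: most kinesins carry cargo outward from the cell body, while cytoplasmic dynein, activated by the dynactin complex, carries cargo back. A neuron that projects to a distant target must keep a long axon supplied by these motors. CAV2 itself is known to travel back along axons to the cell body.

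The arrays of a group correlated at 0.981 to 0.991 over all probe sets (4 pairs) and arrays of different groups at 0.973 to 0.988 (24 pairs). Rpl10a, the usual carrier of the tag in such mice, measured 11.94 to 11.95 in VTA pull-downs against 9.87 to 10.35 in VTA inputs, and 12.05 to 12.11 in NAC pull-downs against 10.92 to 10.94 in NAC inputs. Markers of glia were lower in pull-downs averaged over the targets: 6 of 6 oligodendrocyte, 5 of 6 astrocyte and 4 of 5 microglia genes tested fell, where 32% of all genes fell and 9.6% rose. Of 7 markers of GABAergic interneurons 0 rose and 5 fell with limma, and 5 had an unadjusted p under 0.05. Of 5 glutamatergic projection neuron markers 0 rose and 2 fell, a share near that of all genes, and 2 had an unadjusted p under 0.05. Of 5 endothelial markers 1 rose and 2 fell. Fewer cells of a type and less RNA per cell cannot be told apart in such samples.

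Pull-down was set against input, averaged over both targets, to ask which transcripts the tagged ribosomes held more or less of than the tissue. Tubulins, folding cofactors and small dynein light chains made up all 10 module genes that rose. Kinesins with heavy or intermediate chains of dynein made up 8 of the 10 that fell, but these roles hold many of the 56 genes. Of them 2 of 5 kinesin-1 genes, 2 of 10 kinesin-2 and kinesin-3 genes and 1 of 9 other kinesins fell. Of the dynein chains 3 of 7 fell. The higher genes were Tuba1b, Tbca, Tubb2b, Dynll2, Dynlrb2, Tubb6, Dynlrb1, Tbcb, Tubg1 and Tubb2a. The lower genes were Dync2h1, Tubb4a, Tbcd, Kif5a, Kif26b, Kif16b, Kif13a, Kif5b, Dync1i1 and Dync1h1. Both counts, 10 of 56, are 17.9% of the kept genes (limma, Benjamini-Hochberg adjusted p under 0.05 over all genes tested). Over all 11712 genes 41.5% passed in this comparison, of which 9.6% of all genes rose and 32% fell, with a median difference of -0.11 on the log2 scale, against -0.05 over the 56 genes. Of the 10 higher genes, Dynlrb2 and Tubb6 were kept only through pull-down arrays, so a rise of some size was built in for them. Among the 50 genes that passed the filter on every array 8 rose and 10 fell.

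Which calls were kept depended on how the arrays were scaled. With each array centred on its median over named genes 10 of the 10 higher and 6 of the 10 lower calls were kept, and with quantile normalization 10 and 5 were kept. Dync1h1, Dync1i1 and Kif13a lost their calls under both, Kif5b under centring (-0.20, adjusted p = 0.0689), and Kif16b and Kif26b under quantile normalization (-0.19, adjusted p = 0.0553, and -0.22, adjusted p = 0.0617). Dync1h1 then differed by -0.14 and -0.13, Dync1i1 by -0.15 and -0.12 and Kif13a by -0.20 and -0.12. Centring on the median over all probe sets kept 8 of the higher calls, without Tubb2a and Tubg1, and 10 of the lower. The median over all genes was -0.11 as deposited and -0.05 with centring on named genes. It was -0.01 with quantile normalization and -0.16 with centring over all probe sets. Lower calls were lost where that median rose and higher calls where it fell. A small difference of either sign is best read against that shift, and neither side is shown to be the sturdier.

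**Figure D1:**
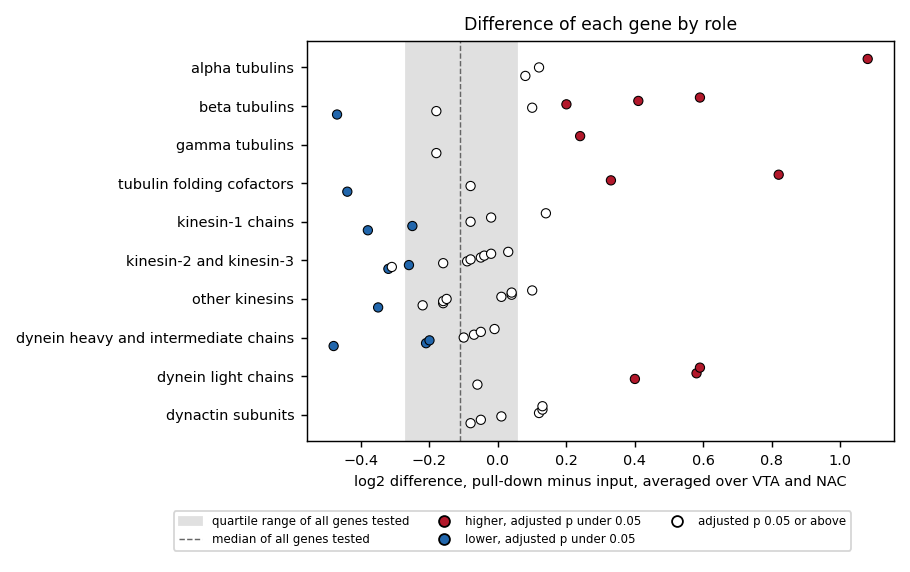
Averaged log2 difference of pull-down minus input (horizontal axis) for each of the 56 kept genes, in a line per role. Red points passed the test as higher (10 genes), blue as lower (10) and open points did not pass, the dashed line and grey band give the median and quartiles of all genes tested, and Tuba1b at 1.08 and Dync2h1 at -0.48 lie at the ends.

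Sequence just upstream of the start is printed for the neighbours Tuba1b and Tuba1a, whose measured differences are unlike, for Tbca, which rose in both targets, and for Tubb4a, the tubulin that fell. Each run is the 150 bases before the start site in RefSeq on GRCm38.p6, 5′ to 3′ on the gene's strand, with the GC box (GGGCGG or its reverse complement CCGCCC) in capitals.
Tuba1b, chr15:98934391-98934540, minus strand: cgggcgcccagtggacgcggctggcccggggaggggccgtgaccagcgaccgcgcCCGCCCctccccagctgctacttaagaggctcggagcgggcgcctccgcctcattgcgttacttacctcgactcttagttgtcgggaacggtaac
Tuba1a, chr15:98953502-98953651, minus strand: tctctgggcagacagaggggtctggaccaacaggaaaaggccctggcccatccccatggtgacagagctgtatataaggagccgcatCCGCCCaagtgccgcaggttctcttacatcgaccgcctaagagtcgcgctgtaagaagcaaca
Tbca, chr13:94788770-94788919, plus strand: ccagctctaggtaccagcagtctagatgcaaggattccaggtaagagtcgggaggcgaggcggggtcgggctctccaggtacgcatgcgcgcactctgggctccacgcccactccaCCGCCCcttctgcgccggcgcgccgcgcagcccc
Tubb4a, chr17:57087601-57087750, minus strand: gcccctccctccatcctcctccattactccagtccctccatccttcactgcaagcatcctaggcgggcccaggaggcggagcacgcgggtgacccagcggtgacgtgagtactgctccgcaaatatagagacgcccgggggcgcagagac
The GC box is the core of sites that Sp1-type factors are known to bind. Each of the first 3 held 1 GC box in this window, and no match was present in these letters for Tubb4a. Entries were found for 43 of the 56 genes, with 50 promoters, and 62% of those held the GC box, against 28.6% of all 32851 promoters of the same length. For the letters CCAAT (either strand) the shares were 28% and 24.5%, and for TATAAA (either strand) 2% and 7.57%. The wider set of promoters was not limited to genes that passed the filter on level, so the shares do not compare like genes. Promoters of the tested genes were not counted apart. These matches describe letters and show no binding.

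Tuba1b, an alpha tubulin made in most cells, had the highest averaged difference of the module. Its levels were 7.86 and 7.64 in VTA pull-downs against 6.16 and 6.51 in VTA inputs, and 7.12 and 7.43 in NAC pull-downs against 6.06 and 7.02 in NAC inputs. The 4 pull-downs lay above all 4 inputs, but the second NAC input, at 7.02, came close to the first NAC pull-down, at 7.12. Averaged over the targets the gene rose by 1.08 (SE 0.18, adjusted p = 0.00204), a 2.11-fold difference. In VTA it rose by 1.41 (SE 0.26, adjusted p = 0.00539), and in NAC the difference was 0.74 (SE 0.26, adjusted p = 0.0854). Without the first VTA input the VTA difference was 1.24 and no longer passed (adjusted p = 0.0662). The NAC difference rested on the inputs: it was 0.26 without the first NAC input (adjusted p = 0.478) and 1.22 without the second (adjusted p = 0.03).

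A neighbouring measurement does not go the same way. A further probe set annotated to both Tuba1b and Gm5620 measured 6.79 and 6.97 in VTA pull-downs against 7.61 and 7.37 in VTA inputs, and 7.21 and 7.08 in NAC pull-downs against 7.28 and 7.33 in NAC inputs. In a fit over every annotated probe set it fell by 0.39 on average (SE 0.08, adjusted p = 0.00593) and by 0.61 in VTA (adjusted p = 0.0068). The transcripts behind either probe set were not traced, so the direction given for Tuba1b is that of its own probe set only.

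Tuba1a lies 15456 bases from Tuba1b on chromosome 15 and is the alpha tubulin of growing neurons. Its brightest probe set measured 9.68 and 9.53 in VTA pull-downs against 9.53 and 9.48 in VTA inputs, and 9.57 and 9.56 in NAC pull-downs against 9.47 and 9.40 in NAC inputs. All 8 values lay between 9.40 and 9.68, and the averaged difference of 0.12 (SE 0.07) did not pass the test (adjusted p = 0.185). A dimmer probe set of Tuba1a differed by 0.34 (adjusted p = 0.0635), and the mean of both sets rose by 0.23 (adjusted p = 0.0406). Tuba8, an alpha tubulin with a divergent sequence, differed by 0.08 (adjusted p = 0.446). Tuba1c stayed below the filter.

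Among the 6 beta tubulins tested, 3 rose and 1 fell, with a rise built in by the filter for 1 of the 3, Tubb6. The shares of all genes were 9.6% higher and 32% lower. Tubb2b, a neuronal beta tubulin that is mutated in cortical malformations in humans, measured 7.99 and 7.82 in VTA pull-downs against 6.91 and 7.60 in VTA inputs, and 7.61 and 7.86 in NAC pull-downs against 7.01 and 7.39 in NAC inputs. The first input of each target was the lowest, and the lowest pull-down, at 7.61, barely exceeded the highest input, at 7.60. It rose by 0.59 averaged over the targets (SE 0.15, adjusted p = 0.0103) and by 0.65 in VTA (SE 0.21, adjusted p = 0.0382). The VTA call was lost without the first VTA input (0.31, adjusted p = 0.289) and without either VTA pull-down, over a range of 0.31 to 0.74. In NAC its difference was 0.54 (adjusted p = 0.112), and 0.35 without the first NAC input (adjusted p = 0.471). Its second probe set differed by 0.06 on average (adjusted p = 0.512).

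Tubb6, a beta tubulin of low abundance in brain, measured 6.02 and 6.05 in VTA pull-downs against 5.31 and 5.62 in VTA inputs, and 6.11 and 5.73 in NAC pull-downs against 5.65 and 5.67 in NAC inputs. The inputs lay below the filter's medians, so the gene was kept through its pull-downs alone and a difference of some size was built in. Its tests describe no more than that. The difference was 0.41 (SE 0.10, adjusted p = 0.00904) on average and 0.56 in VTA (SE 0.14, adjusted p = 0.015). Without the first VTA pull-down or the first VTA input the VTA call was lost (0.41 to 0.58, adjusted p 0.0526 to 0.135). Tubb2a, a major beta tubulin of the brain, measured 10.82 and 10.84 in VTA pull-downs against 10.46 and 10.67 in VTA inputs, and 10.72 and 10.77 in NAC pull-downs against 10.52 and 10.68 in NAC inputs. All pull-downs lay above all inputs by a small step, 0.20 on average (SE 0.07, adjusted p = 0.0498). That call was lost on leaving out any one array other than the second VTA input (0.15 to 0.24, adjusted p 0.0536 to 0.174).

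Tubb4a, a beta tubulin abundant in oligodendrocytes and neurons, was the tubulin that fell. It measured 11.74 and 11.78 in VTA pull-downs against 12.40 and 12.39 in VTA inputs, and 11.98 and 11.93 in NAC pull-downs against 12.24 and 12.29 in NAC inputs. Arrays of a group lay within 0.05 of each other, with no overlap between pull-down and input. It fell by 0.47 on average (SE 0.06, adjusted p = 7.4e-04), by 0.63 in VTA (SE 0.09, adjusted p = 0.00243) and by 0.31 in NAC (SE 0.09, adjusted p = 0.0476). The NAC call was lost on leaving out either NAC pull-down or any of the 4 inputs (-0.33 to -0.28, adjusted p 0.0735 to 0.23). Of 8 other settings it held in 2, and those that ended it included either centring (adjusted p = 0.0871 over named genes and 0.0915 over all probe sets), no filter (adjusted p = 0.175), the mean of probe sets (adjusted p = 0.0503) and only the 4 NAC arrays (adjusted p = 0.0678). Oligodendrocyte markers were also lower in pull-downs: the mean level of the 6 tested was 9.33 on both VTA pull-downs against 9.85 to 9.91 in VTA inputs, and 9.33 to 9.44 in NAC pull-downs against 10.05 to 10.11 in NAC inputs. Their median difference was -0.53 in VTA and -0.71 in NAC. The difference of enrichment between the targets passed neither for Tubb4a nor for any of these markers. The part of oligodendrocytes in the difference of Tubb4a was not tested.

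Tubb3, the class III beta tubulin used as a marker of neurons, measured 10.43 and 10.33 in VTA pull-downs against 10.21 and 10.35 in VTA inputs, and 10.35 and 10.24 in NAC pull-downs against 10.22 and 10.17 in NAC inputs. Pull-down and input overlapped, and its averaged difference of 0.10 did not pass (adjusted p = 0.259). Tubb5, a beta tubulin of most cells, measured 11.51 on both VTA pull-downs against 11.71 and 11.72 in VTA inputs, and 11.73 and 11.63 in NAC pull-downs against 11.90 and 11.75 in NAC inputs. The brightest probe set thus gave an averaged difference of -0.18 (adjusted p = 0.0594). A dimmer Tubb5 probe set went the other way, at 10.08 and 9.55 in VTA pull-downs against 8.73 and 9.17 in VTA inputs, and 9.53 and 9.73 in NAC pull-downs against 9.12 and 9.30 in NAC inputs. In the fit over every annotated probe set it rose by 0.64 (SE 0.13, adjusted p = 0.00637), so no direction is given for Tubb5.

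**Figure D2:**
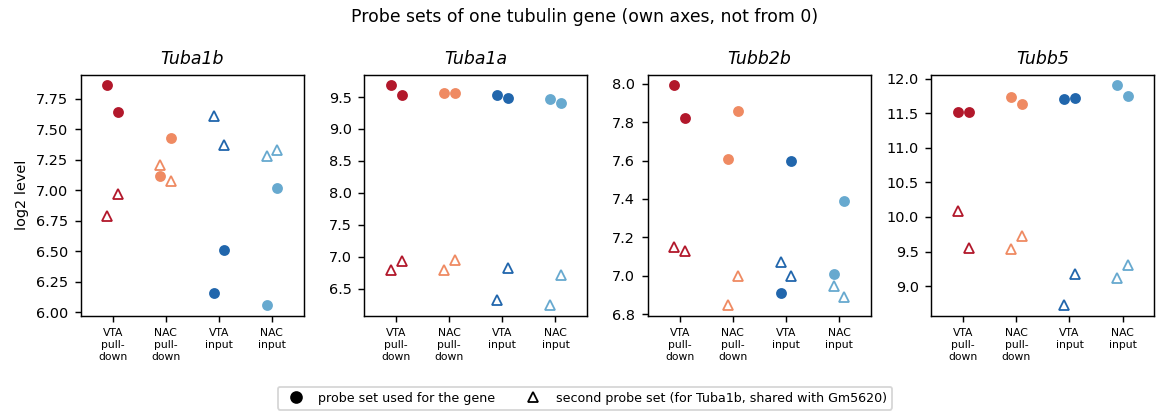
Log2 level on each of the 8 arrays (vertical axis, its own range in each panel) for the probe sets of Tuba1b, Tuba1a, Tubb2b and Tubb5, with pull-downs left of inputs. Filled circles are the set used for the gene and open triangles the second set, which for Tuba1b is shared with Gm5620 and lies lower in pull-downs while the gene's own set lies higher.

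Several probe sets with higher pull-downs shared a pattern among the inputs. For Tuba1b, Tubb2b and the dimmer sets of Tuba1a and Tubb5 the first input was below the second in each target. The same order, often by a smaller step, held for the higher genes Tubb2a, Tubg1, Dynll2, Tubb6 and Dynlrb2. It did not hold for Tbca and Tbcb, and Dynlrb1 measured 11.24 on both NAC inputs. Nor was the order particular to higher genes. It also held for the lower genes Kif5a and Kif16b and for uncalled genes, among them Kif1a and Dctn1. The share of all genes with this order was not counted. The dimmer Tuba1a set, for one, measured 6.32 and 6.82 in VTA inputs and 6.25 and 6.72 in NAC inputs, beside 6.79 and 6.93 in VTA pull-downs and 6.80 and 6.95 in NAC pull-downs. In the brightest sets of Tuba1a, Tubb4a and Tubb5 the first input was not the lower one in both targets. The part of the first inputs in the differences of these genes and dimmer sets was not tested.

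Gamma tubulin nucleates microtubules at centrosomes and along neurites. Tubg1 measured 8.74 and 8.68 in VTA pull-downs against 8.45 and 8.57 in VTA inputs, and 8.73 and 8.76 in NAC pull-downs against 8.41 and 8.52 in NAC inputs. It rose by 0.24 averaged over the targets (SE 0.07, adjusted p = 0.0171), a call lost without the second NAC pull-down, the first NAC input or the first VTA input (0.21 to 0.23, adjusted p 0.0522 to 0.069). Tubg2, the form enriched in brain, measured 8.14 and 8.35 in VTA pull-downs against 8.71 and 8.61 in VTA inputs, and 8.71 and 8.50 in NAC pull-downs against 8.53 and 8.57 in NAC inputs. In VTA it fell by 0.42 (SE 0.11, adjusted p = 0.02), a call lost without the first VTA pull-down or either VTA input (-0.46 to -0.31, adjusted p 0.0573 to 0.132). In NAC its difference was 0.06, and the difference between the targets, -0.47, did not pass (adjusted p = 0.305).

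The folding cofactors did not move together: of the 4 tested, 2 rose and 1 fell, where 9.6% of all genes rose and 32% fell. Tbca, which holds beta tubulin before it joins a dimer, measured 8.51 and 8.38 in VTA pull-downs against 7.80 and 7.71 in VTA inputs, and 8.63 and 8.53 in NAC pull-downs against 7.63 and 7.62 in NAC inputs. The lowest pull-down, at 8.38, lay well above the highest input, at 7.80. The gene rose by 0.82 on average (SE 0.07, adjusted p = 1.4e-04), a 1.76-fold difference, by 0.68 in VTA (SE 0.10, adjusted p = 0.00243) and by 0.95 in NAC (SE 0.10, adjusted p = 0.00121). It passed the test in all 3 comparisons under every alternative tried.

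Tbcb, which binds alpha tubulin, measured 9.01 and 9.27 in VTA pull-downs against 8.65 and 9.04 in VTA inputs, and 8.99 and 9.02 in NAC pull-downs against 8.67 and 8.63 in NAC inputs. The VTA arrays overlapped and the NAC arrays did not. It rose by 0.33 on average (SE 0.10, adjusted p = 0.022), and the call was lost without the second pull-down of either target, either NAC input or the first VTA input (0.23 to 0.34, adjusted p 0.0554 to 0.0831). Tbcd, which takes over beta tubulin from Tbca and can also take dimers apart, measured 6.80 and 6.92 in VTA pull-downs against 7.25 and 7.56 in VTA inputs, and 7.08 and 6.95 in NAC pull-downs against 7.36 and 7.33 in NAC inputs. It went the opposite way to Tbca, and fell by 0.44 on average (SE 0.08, adjusted p = 0.00343) and by 0.54 in VTA (SE 0.12, adjusted p = 0.00944). The VTA call was lost without the second VTA input (-0.39, adjusted p = 0.0618). Tbcc, which completes the dimer, differed by -0.08 (adjusted p = 0.415).

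**Figure D3:**
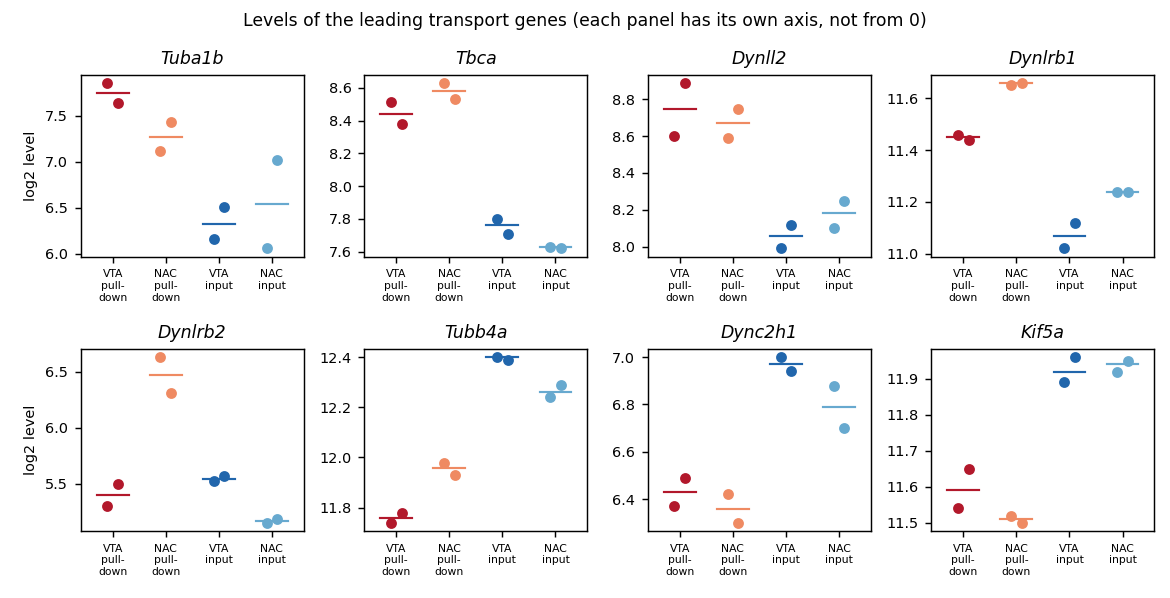
Log2 level on each of the 8 arrays (vertical axis, its own range in each panel) for Tuba1b, Tbca, Dynll2, Dynlrb1, Dynlrb2, Tubb4a, Dync2h1 and Kif5a, with pull-downs left of inputs and a bar at the mean of the 2 arrays of a group. Tbca, Dynll2 and Dynlrb1 lie higher in pull-downs in both targets, Tubb4a, Dync2h1 and Kif5a lower, and Dynlrb2 is high on the 2 NAC pull-downs.

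Kinesin-1 is the main motor of outward axonal transport, built from Kif5 heavy chains and Klc light chains. Of 5 kinesin-1 genes tested 0 rose and 2 fell with limma, with a median difference of -0.08 (-0.05 with quantile normalization) and 2 in all at an unadjusted p under 0.05. Among all genes 32% fell, with a median of -0.11 (-0.01 with quantile normalization). Kif5a, the neuronal heavy chain mutated in human spastic paraplegia, measured 11.54 and 11.65 in VTA pull-downs against 11.89 and 11.96 in VTA inputs, and 11.52 and 11.50 in NAC pull-downs against 11.92 and 11.95 in NAC inputs. All 4 pull-downs lay below all 4 inputs. It fell by 0.38 on average (SE 0.06, adjusted p = 0.00215), by 0.33 in VTA (SE 0.09, adjusted p = 0.0239) and by 0.43 in NAC (SE 0.09, adjusted p = 0.0198). The VTA call was lost without the first VTA pull-down or either VTA input (-0.37 to -0.27, adjusted p 0.0885 to 0.11). The NAC call was lost without any one of the 4 NAC arrays (-0.44 to -0.41, adjusted p 0.0513 to 0.109).

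Kif5b, the heavy chain of most cells, measured 9.76 and 9.95 in VTA pull-downs against 10.13 and 9.98 in VTA inputs, and 9.66 and 9.73 in NAC pull-downs against 9.99 and 10.01 in NAC inputs. It fell by 0.25 on average (SE 0.07, adjusted p = 0.0206), a call lost without the first pull-down of either target, either NAC input or the first VTA input (-0.26 to -0.21, adjusted p 0.0532 to 0.0826). Kif5c, the remaining heavy chain and also neuronal, measured 11.16 and 11.25 in VTA pull-downs against 11.26 and 11.28 in VTA inputs, and 11.15 and 11.18 in NAC pull-downs against 11.25 and 11.26 in NAC inputs. Its difference of -0.08 did not pass (adjusted p = 0.345). Klc1, the light chain that links kinesin-1 to cargo in neurons, measured 10.91 on both VTA pull-downs against 10.76 and 10.84 in VTA inputs, and 10.92 and 10.96 in NAC pull-downs against 10.81 and 10.72 in NAC inputs. Its pull-downs lay above its inputs, but the difference of 0.14 did not pass (adjusted p = 0.1). It passed with centring (0.20, adjusted p = 0.0435) and with quantile normalization (0.19, adjusted p = 0.034).

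Kinesin-2 motors serve cilia and neurites, and kinesin-3 motors carry synaptic vesicle precursors and endosomes. Of 10 such genes tested 0 rose and 2 fell with limma, with a median of -0.09 and 4 in all at an unadjusted p under 0.05. The share that fell was 20%, against 32% of all genes, whose median was -0.11. Of the 10 differences 9 were negative as deposited and 5 with quantile normalization. Kif16b, which moves early endosomes, measured 6.80 and 6.91 in VTA pull-downs against 7.15 and 7.28 in VTA inputs, and 6.84 and 6.65 in NAC pull-downs against 6.98 and 7.06 in NAC inputs. It fell by 0.32 on average (SE 0.07, adjusted p = 0.008) and by 0.36 in VTA (SE 0.10, adjusted p = 0.0278), and the VTA call was lost without the first VTA pull-down or either VTA input (-0.42 to -0.30, adjusted p 0.0859 to 0.14). Kif13a, a kinesin-3 of recycling endosomes, measured 7.33 and 7.48 in VTA pull-downs against 7.73 and 7.66 in VTA inputs, and 7.16 and 7.06 in NAC pull-downs against 7.46 and 7.22 in NAC inputs. The pull-downs lay below the inputs within each target, and it fell by 0.26 on average (SE 0.08, adjusted p = 0.023). Leaving out the first VTA pull-down, the second NAC pull-down or the first input of either target ended that call (-0.25 to -0.20, adjusted p 0.0643 to 0.0953).

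Kif1a, the kinesin-3 that carries synaptic vesicle precursors down axons, measured 11.49 and 11.52 in VTA pull-downs against 11.47 and 11.55 in VTA inputs, and 11.43 and 11.47 in NAC pull-downs against 11.44 and 11.61 in NAC inputs. Its groups overlapped and its difference was -0.04 (adjusted p = 0.67), a sign that turned when arrays were centred on their medians (0.02). Kif3a, a kinesin-2 motor subunit, measured 9.09 and 9.18 in VTA pull-downs against 9.19 and 9.16 in VTA inputs, and 9.14 and 9.08 in NAC pull-downs against 9.14 and 9.09 in NAC inputs. Its difference of -0.02 (adjusted p = 0.802) also turned, to 0.04 with centring and 0.07 with quantile normalization.

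Among 9 other kinesins tested 0 rose and 1 fell with limma, and 2 in all had an unadjusted p under 0.05. The share that fell was 11.1%, against 32% of all genes. Kif26b, an atypical kinesin without motor activity, measured 6.60 and 6.51 in VTA pull-downs against 6.90 and 7.13 in VTA inputs, and 6.36 and 6.52 in NAC pull-downs against 6.71 and 6.64 in NAC inputs. It fell by 0.35 on average (SE 0.08, adjusted p = 0.00674) and by 0.46 in VTA (SE 0.11, adjusted p = 0.0132), the VTA call being lost without the second VTA input (-0.35, adjusted p = 0.0879). Kif9, a kinesin of motile cilia, measured 5.65 and 5.49 in VTA pull-downs against 6.05 and 5.98 in VTA inputs, and 5.81 and 5.50 in NAC pull-downs against 5.57 and 5.51 in NAC inputs. It fell by 0.44 in VTA (SE 0.12, adjusted p = 0.0195), but it was tested only because its VTA inputs passed the filter, so some difference was built in. The call was lost without the second VTA pull-down or either VTA input (-0.47 to -0.36, adjusted p 0.0659 to 0.122). The mitotic motors Kif2c, Kif4, Kif11, Kif15, Kif18a, Kif18b, Kif20a, Kif20b, Kif22 and Kif23 all stayed below the filter, as did the markers of dividing cells that were measured.

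**Figure D4:**
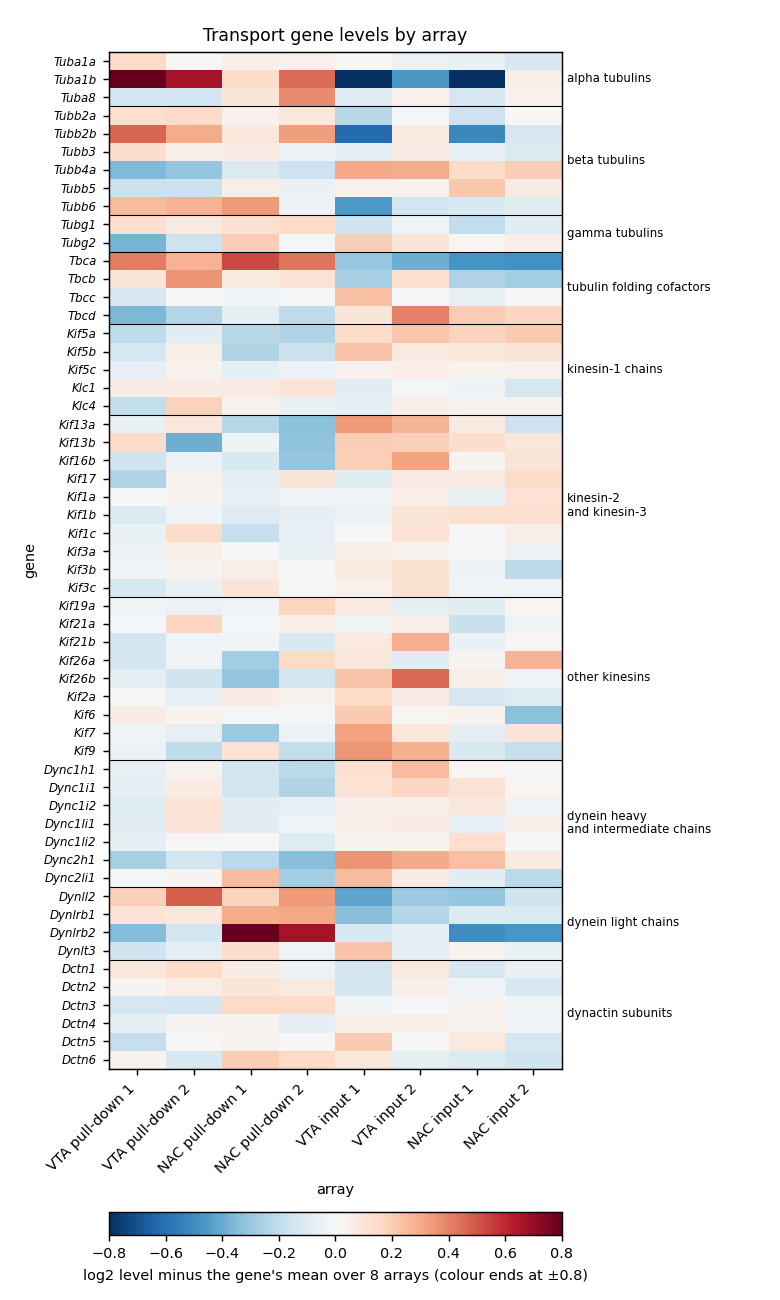
Level of each of the 56 kept genes (rows, in order of role) on each of the 8 arrays (columns, pull-downs left of inputs) as the log2 difference from that gene's mean over the arrays, red above and blue below, with the colours ending at 0.8 either way. The first inputs of both targets are low for Tuba1b and Tubb2b, and the 2 NAC pull-downs are high for Dynlrb2.

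Cytoplasmic dynein carries cargo toward the cell body on heavy, intermediate and light intermediate chains. All 7 of these genes had a negative averaged difference as deposited, from -0.48 to -0.01, with a median of -0.10. The genes tested as a whole leaned that way too, with a median of -0.11 and quartiles of -0.27 and 0.06. With either centring on named genes or quantile normalization 5 of the 7 were negative. On the deposited scale 3 passed the test as lower, where 32% of all genes fell, and 1, Dync2h1, did under each of those scalings. Dync2h1, the heavy chain of the dynein that works in cilia, measured 6.37 and 6.49 in VTA pull-downs against 7.0 and 6.94 in VTA inputs, and 6.42 and 6.30 in NAC pull-downs against 6.88 and 6.70 in NAC inputs. Pull-downs and inputs did not overlap. It fell by 0.48 on average (SE 0.07, adjusted p = 0.00127), by 0.54 in VTA (SE 0.10, adjusted p = 0.00617) and by 0.42 in NAC (SE 0.10, adjusted p = 0.0299). The VTA call was lost without the first VTA input (-0.51, adjusted p = 0.0625), and the NAC call without the second NAC pull-down or any of the 4 inputs (-0.51 to -0.33, adjusted p 0.0531 to 0.189).

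Dync1h1, the heavy chain of axonal retrograde transport, measured 9.53 and 9.62 in VTA pull-downs against 9.73 and 9.85 in VTA inputs, and 9.44 and 9.38 in NAC pull-downs against 9.61 and 9.60 in NAC inputs. Within each target the pull-downs were lower, by 0.20 on average (SE 0.07, adjusted p = 0.0341), a call lost on leaving out any array but the second VTA pull-down (-0.23 to -0.17, adjusted p 0.0504 to 0.108). Dync1i1, the intermediate chain enriched in neurons, measured 8.81 and 8.94 in VTA pull-downs against 8.99 and 9.05 in VTA inputs, and 8.73 and 8.64 in NAC pull-downs against 9.0 and 8.90 in NAC inputs. It fell by 0.21 on average (SE 0.07, adjusted p = 0.0329), a call lost without the first VTA pull-down, the second NAC pull-down or any of the 4 inputs (-0.23 to -0.18, adjusted p 0.0525 to 0.112). The other 4 genes of these chains had differences of -0.10 to -0.01 that did not pass.

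Dynein light chains are small subunits that link the motor to cargo. Of the 4 tested, 3 rose, but for 1 of them, Dynlrb2, a rise was built in by the filter, and its difference was 1.30 in NAC and -0.14 in VTA. The shares of all genes were 9.6% higher and 32% lower. Dynll2, a light chain of the LC8 kind that also binds myosin V, measured 8.60 and 8.89 in VTA pull-downs against 7.99 and 8.12 in VTA inputs, and 8.59 and 8.75 in NAC pull-downs against 8.10 and 8.25 in NAC inputs. All 4 pull-downs lay above all 4 inputs. It rose by 0.59 on average (SE 0.09, adjusted p = 0.00116), by 0.69 in VTA (SE 0.12, adjusted p = 0.00492) and by 0.49 in NAC (SE 0.12, adjusted p = 0.0318). Its VTA call was lost without the first VTA input (0.62, adjusted p = 0.0599), and its NAC call without the second NAC pull-down or any of the 4 inputs (0.41 to 0.57, adjusted p 0.0548 to 0.188).

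Dynlrb1, the roadblock light chain of most cells, measured 11.46 and 11.44 in VTA pull-downs against 11.02 and 11.12 in VTA inputs, and 11.65 and 11.66 in NAC pull-downs against 11.24 on both NAC inputs. It rose by 0.40 on average (SE 0.06, adjusted p = 0.00154), by 0.38 in VTA (SE 0.09, adjusted p = 0.0128) and by 0.42 in NAC (SE 0.09, adjusted p = 0.0197). The VTA call was lost without the first VTA input (0.33, adjusted p = 0.0994), and the NAC call without any one of the 4 NAC arrays (0.41 to 0.42, adjusted p 0.0508 to 0.112). Dynlt3, a light chain of the Tctex kind, differed by -0.06 (adjusted p = 0.566). Dynll1, the close relative of Dynll2, had 5.79 and 5.81 in VTA pull-downs against 5.79 and 5.81 in VTA inputs, and 5.90 and 5.67 in NAC pull-downs against 5.85 and 5.48 in NAC inputs, under the filter on every array.

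Dynactin links dynein to cargo and keeps it on the track. All 6 subunits tested stayed between -0.08 and 0.13 on average. In this comparison 0 passed limma's test, where 41.5% of all genes passed, with 0 at an unadjusted p under 0.05 and 1 higher call with quantile normalization. Dctn1, the large subunit that binds microtubules, measured 9.56 and 9.62 in VTA pull-downs against 9.32 and 9.55 in VTA inputs, and 9.53 and 9.43 in NAC pull-downs against 9.34 and 9.41 in NAC inputs. Its pull-downs lay above its inputs in each target by less than the test could call (0.13, SE 0.07, adjusted p = 0.177).

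The targets were also taken apart. In VTA 6 module genes rose and 8 fell, against a background of 31.3% passing over all genes, 5.44% rising and 25.9% falling. In NAC 4 rose and 3 fell, against 12.3% passing over all genes, 4.34% rising and 8.01% falling. The VTA and NAC comparisons share no arrays but share the fitted spread. Tbca, Dynll2 and Dynlrb1 rose in both and Tubb4a, Dync2h1 and Kif5a fell in both. The Tubb4a call in NAC held in 2 of 8 other settings and the Kif5a call in VTA in 5 of 8, against 6 to 8 of 8 for the remaining calls of these 6 genes. Counts include genes with a difference built in by the filter, Tubb6 among those higher and Kif9 among those lower in VTA, and Dynlrb2 among those higher in NAC. A gene called in one target only is not thereby shown to differ between them, and that difference was tested for each gene. Calls in a single target rest on few arrays: without the first VTA input 1 of the 6 higher and 3 of the 8 lower VTA calls were kept, and without the second VTA input 6 and 2 were kept.

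**Figure D5:**
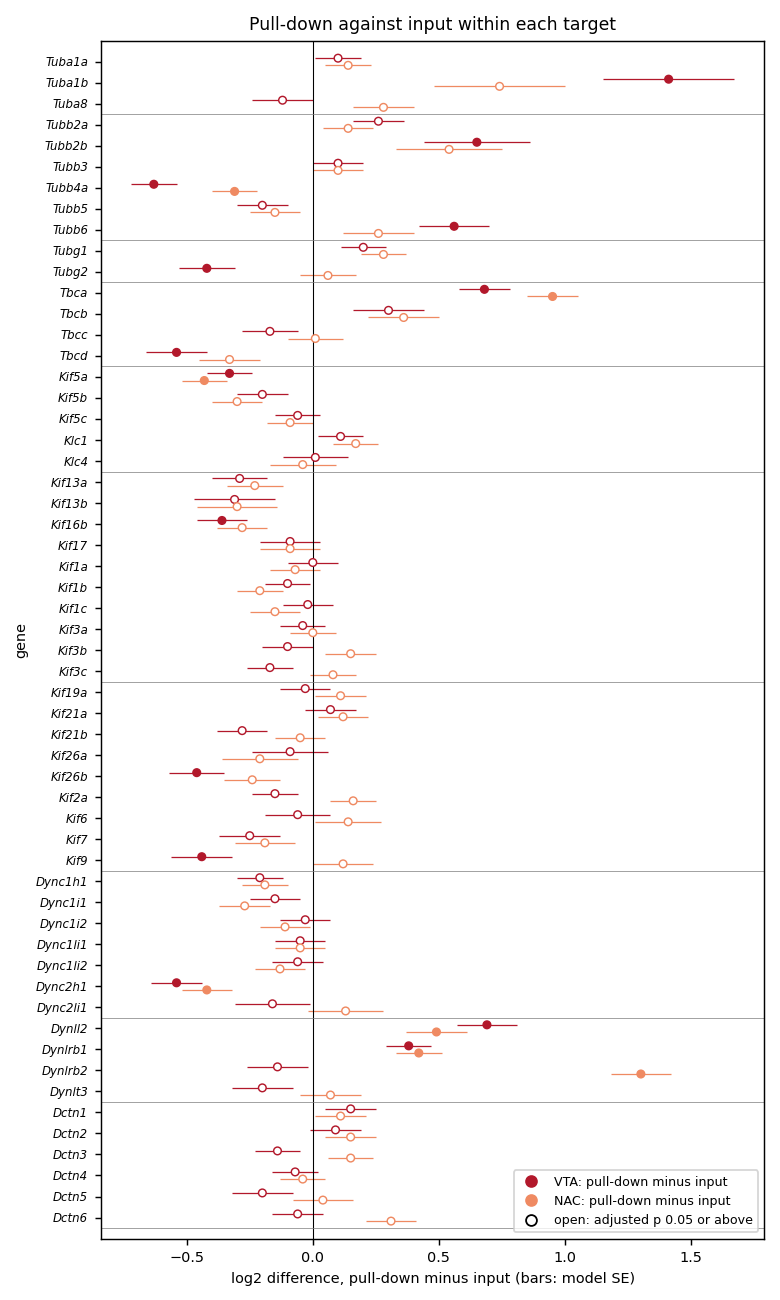
Log2 difference of pull-down minus input (horizontal axis) for each of the 56 kept genes (rows), dark red for VTA and orange for NAC, with bars of 1 model SE and open points where the adjusted p was 0.05 or above. The targets lie farthest apart for Dynlrb2, at -0.14 in VTA and 1.30 in NAC.

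Setting VTA pull-downs against NAC pull-downs asked whether the labelled populations differ in these transcripts. In the module 0 genes were higher and 1 was lower, against 2.47% passing over all genes, 0.418% higher and 2.05% lower, and 7 had an unadjusted p under 0.05. That gene was Dynlrb2, a roadblock light chain found with motile cilia in mouse. Dynlrb2 measured 5.30 and 5.50 in VTA pull-downs against 6.63 and 6.31 in NAC pull-downs, with 5.52 and 5.57 in VTA inputs and 5.15 and 5.18 in NAC inputs. The 2 NAC pull-downs were the only arrays above the filter's medians. Since the gene was kept through those arrays, a difference of some size was built in, and its tests describe no more than that. The difference was -1.07 between pull-downs (SE 0.12, adjusted p = 9.6e-04), 1.30 for NAC pull-down minus input (SE 0.12, adjusted p = 9.0e-04) and 0.58 for the averaged comparison (SE 0.09, adjusted p = 0.00124).

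Markers of ciliated ependymal cells were read beside Dynlrb2, which belongs to that list of 10. Only 4 of them passed the filter, Dynlrb2 included. The mean level of the 4 was 6.20 to 6.23 in VTA pull-downs against 6.16 on both VTA inputs, and 6.55 to 6.65 in NAC pull-downs against 5.99 to 6.01 in NAC inputs. Dynlrb2, kept through its NAC pull-downs alone, enters that mean, so the mean is no separate reading of that gene. In the NAC comparison Ccdc153 rose by 0.46 (adjusted p = 0.0471), while Foxj1 at 0.24 (adjusted p = 0.147) and Rsph1 at 0.39 (adjusted p = 0.11) did not pass. Between VTA and NAC pull-downs, and in the difference of enrichment, Dynlrb2 alone of the 4 passed. Tmem212, Dnah5, Dnah11, Cfap126, Spag16 and Tekt1 were below the filter, the dimmest at 4.02 and the brightest at 5.81. The part of such cells in the Dynlrb2 values was not tested.

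No other module gene passed between the pull-downs. Tuba8 was the next in size among those lower in VTA pull-downs, at 6.69 on both arrays against 6.94 and 7.22 in NAC pull-downs (-0.39, SE 0.12, adjusted p = 0.134). Dctn3, a small dynactin subunit, measured 10.03 and 10.01 in VTA pull-downs against 10.32 on both NAC pull-downs, a difference of -0.30 that did not pass over all genes. Tuba1b differed by 0.47 in the other direction and did not pass either.

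VTA inputs against NAC inputs gave 0 higher and 0 lower module genes with limma, with 6 at an unadjusted p under 0.05, against 1.5% passing over all genes, 0.12% higher and 1.38% lower. Kif9 differed most, at 0.48 (adjusted p = 0.11), but it was kept through its VTA inputs alone, so a difference of some size was built in. Subtracting the NAC enrichment from the VTA enrichment tests whether enrichment itself differed. That test gave 0 higher and 1 lower, Dynlrb2, with 8 at an unadjusted p under 0.05. Over all genes 0.0683% passed that test, 0.00854% higher and 0.0598% lower. Dynlrb2 was kept through its NAC pull-downs alone, so a difference of some size was built in. The share of all genes at an unadjusted p under 0.05 was not counted, so no excess is read from the unadjusted counts. The direction of Tubb4a, lower in both targets, differed between them by -0.33 without passing (adjusted p = 0.36).

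Gene length, which the rule did not use, differed between the genes that rose and those that fell. The 10 higher genes span a median of 9485 bases in RefSeq (2962 to 54004), the 10 lower genes 173006 bases (7540 to 403733) and the 36 uncalled genes 33412 bases (1843 to 294750). Tuba1b, at 2962 bases, is the shortest of the higher genes, and Kif26b, at 403733 bases, the longest of the lower. Across the 56 genes the averaged difference and the span had a Spearman rho of -0.47, and across 11695 of the 11712 genes it was -0.36. All points share the same 8 arrays, and the relation is given as a description. The part of length in the differences was not tested.

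Other genes of microtubule biology outside the rule, a list of 76 that held adaptors, stabilising proteins and tubulin-modifying enzymes, leaned the same way as all genes. Of 64 tested 7 rose and 17 fell, or 10.9% and 26.6%, with a median of -0.10. Map1lc3a, a microtubule-associated protein used in autophagy, rose by 0.61 (SE 0.09, adjusted p = 0.00124), Map7d2, a kinesin-1 cofactor, by 0.29 (adjusted p = 0.009) and Mapk8ip1, a kinesin-1 cargo adaptor, by 0.29 (adjusted p = 0.00822). Dcx, the doublecortin of migrating neurons, fell by 0.51 (adjusted p = 0.00278), Tubgcp3, a partner of gamma tubulin, by 0.47 (adjusted p = 0.00449) and Ttll1, a tubulin polyglutamylase subunit, by 0.43 (adjusted p = 0.00218). In the comparisons of VTA with NAC 0 of the 64 passed with limma, with 5 at an unadjusted p under 0.05 for pull-downs and 5 for inputs.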

How the data were processed

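The deposited table holds 1 log2 value per probe set and array, made by the authors with Transcriptome Analysis Console per the submitters' processing notes, which name no version; how the arrays were normalized is not given in those notes. The values were used as deposited. Of 41345 probe sets, 23521 carried 1 gene symbol in the platform annotation, 1814 several and 16010 none, and 23328 of the 23521 were found in RefSeq for GRCm38.p6, which also gave gene spans and promoter sequences. The 22180 named genes were each represented by their brightest probe set. The filter on level left 11712 genes.

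Linear models with 4 group means over the 8 arrays were fitted in R 4.3.3 by limma 3.58.1 (lmFit and eBayes), with 4 residual degrees of freedom and 6.07 added by moderation. Tests were two-sided, with Benjamini-Hochberg adjustment over the 11712 genes and a threshold of 0.05. Counts at an unadjusted p under 0.05 have no share over all genes beside them, and no excess is read from them. The fit was tested on simulated data. Differences are log2, with model standard errors; the number of arrays limits the precision. Full statistics were given to the largest called genes of each comparison and to a list of standard members. The members, gene lists and markers were chosen with earlier results of these data known. Alternatives were other scalings, filters and probe set choices, a replicate block, fits to the arrays compared, and leaving out each array. Centring on the median over all probe sets and the fit over every annotated probe set were added after the data were seen.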

Additional observations from a re-analysis of the deposited data

Results flagged for a closer look

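The enrichment of Dynlrb2, a dynein light chain of the roadblock kind, differed between the targets by -1.45 on the log2 scale, VTA minus NAC (SE 0.17, limma adjusted p = 0.0251). Its pull-down minus input difference was -0.14 in VTA and 1.30 in NAC, and both NAC pull-downs lay above every other array. It was kept for testing through those arrays alone, so a difference of some size was built in. Of the 56 genes 1 passed this test and of all genes 0.0683%, and no excess is read from that call. With quantile normalization (adjusted p = 0.0519), the replicate block (adjusted p = 0.0505) or no filter (adjusted p = 0.35) the limma call was lost. Without the first VTA pull-down or any of the 4 inputs the call was lost (-1.48 to -1.34, adjusted p 0.0514 to 0.249).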

How the results depend on the processing

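Of the 20 averaged calls, 11, Dynlrb2 and Tubb6 included, were kept under every alternative, as were 2 of 7 NAC calls (Tbca and Dynlrb2), 2 of 14 VTA calls (Tbca and Tubb4a), and the Dynlrb2 call between pull-downs, where it could be tested. For Dynlrb2 and Tubb6 the filter had built a difference in, so nothing is read from their kept calls. Centring arrays on their medians over named genes moved the lower calls to 6 in the averaged and 5 in the VTA comparison, and quantile normalization to 5 and 4. Over all genes, the averaged comparison had a median of -0.05 with 1523 higher and 2561 lower under centring, and of -0.01 with 2060 and 2180 under quantile normalization, against -0.11 with 1124 and 3742 as deposited; centring over all probe sets gave -0.16 with 717 and 4285. Without the filter on level, lower calls numbered 6 (averaged), 3 (VTA) and 0 (NAC), and higher NAC calls 2. Dynlrb2 was not tested where all 8 arrays had to pass, which left 0 lower calls between pull-downs and 0 in the difference of enrichment; that difference also gave 0 with quantile normalization and without the filter. Fits to only the 4 arrays compared gave 1 higher call between inputs. Leaving out 1 array in turn, averaged calls ranged from 7 to 10 higher and from 6 to 11 lower, NAC calls from 2 to 4 and from 0 to 3, VTA calls from 1 to 7 and from 2 to 8, and lower calls in the difference of enrichment from 0 to 1; in VTA, 1 higher and 3 lower calls remained without the first VTA input and 2 lower without the second.

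Replicate numbers were not taken to pair arrays: deviations of same-numbered arrays correlated at -0.02 in VTA and 0.30 in NAC between pull-down and input, and between VTA and NAC at -0.13 for pull-downs and 0.22 for inputs. With the replicate number as a block, 10 genes rose and 12 fell in the averaged comparison, 6 and 2 in NAC, 7 and 8 in VTA, and 0 passed in the difference of enrichment; the NAC call of Tubb4a was not made (adjusted p = 0.06). Directions turned for 4 genes in the averaged comparison: Kif1a to 0.02 and Kif3a to 0.04 with centring, Kif3a to 0.07 with quantile normalization, and, with the mean of probe sets, Kif5b to 0.04 and Tubb5 to 0.23 (adjusted p = 0.0463). For the last pair the dimmer probe set enters the mean; the other causes were not tested. Signal over background limits Dynlrb2, Kif9 and Tubb6, whose arrays lay near the filter's medians.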

Other observations

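Probe sets annotated to several genes were outside the rule, and 10 of them named a module gene. In the fit over every annotated probe set the set shared by Tbce, the remaining folding cofactor, and B3galnt2 fell by 0.39 in the averaged comparison (SE 0.10, adjusted p = 0.0159) and by 0.53 in VTA (adjusted p = 0.0251). It measured 7.09 and 7.25 in VTA pull-downs against 7.82 and 7.57 in VTA inputs, and 7.35 and 7.06 in NAC pull-downs against 7.60 and 7.30 in NAC inputs. Of 3 bright sets shared by the light chain copies Dynlt1a, Dynlt1b, Dynlt1c and Dynlt1f, 2 rose, each by 0.22 (adjusted p = 0.033 and 0.0436), and the third differed by 0.14 (adjusted p = 0.124). The set shared by Tuba3a and Tuba3b, alpha tubulins known from testis, rose by 0.40 (SE 0.14, adjusted p = 0.0448) with levels near the filter's medians. The set shared by Tuba4a and Stk16 differed by -0.11 (adjusted p = 0.214). Copies behind a shared probe set cannot be told apart.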
